A study of Homo sapiens with 2 samples.

Results

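Chromatin accessibility at the collagen genes was examined in B2B cells by ATAC-seq, which marks accessible DNA by the insertion of adapters with the Tn5 transposase. B2B is the BEAS-2B line, human bronchial epithelial cells that were immortalized with SV40 and are not cancerous. Both samples were wild-type B2B cells with no treatment, and they form 1 group of 2 replicates. The members were the protein-coding genes of GENCODE 44 whose symbol is COL, a number, A and a number, which gave 44 of 20033 genes. They fall into 11 fibrillar collagens, 8 collagens of the basement membrane and 25 others. Each gene was read in 3 places: within 1 kb of the transcription start site (TSS) of its canonical transcript, in the gene with the region's summit beyond that window, and within 50 kb of either end.

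Collagens are proteins of the extracellular matrix built from chains that wind into a triple helix, often with different chains from different genes in a helix. Fibrillar collagens such as types I, III and V form the fibrils of interstitial tissue and are made chiefly by fibroblasts and other mesenchymal cells. Type IV chains assemble into the sheet of the basement membrane, on which epithelial and endothelial cells rest. The others include beaded filaments (type VI), anchoring fibrils (type VII), FACIT collagens that attach to the surface of fibrils, and transmembrane collagens. Fibroblasts express many of these genes at high levels, whereas bronchial epithelium in tissue is known mainly for basement membrane and hemidesmosome collagens.

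The deposited files hold 1 peak list per replicate, so each value below comes from 1 list and the spread is that between both lists. On chromosomes 1 to 22, X and Y replicate 1 had 28735 peaks and replicate 2 had 36162. Read totals are not in these lists. The fragments over each summit were therefore solved from the peak's own statistics, and the weakest summit held 16 in replicate 1 and 13 in replicate 2. Peaks are called against the local background, so these counts are not a single limit for every gene. A gene without a peak had no signal that passed the call, which does not show that its chromatin was closed. The labels give no culture for each replicate, so the spread may be technical. Of all protein-coding genes 52.2% had a promoter peak in both replicates. Of 12 epithelial marker genes 1 had one, KRT18. CDH1, EPCAM, KRT5 and TP63 were among the 11 with none in either. Of 12 mesenchymal markers other than collagens 8 had one, among them VIM, FN1, TWIST1 and CDH2. THY1 had a peak in replicate 2 only, and ZEB2, FAP and LUM had none in either. A promoter peak in both replicates was found for 1 of 6 endothelial markers and 1 of 6 haematopoietic markers. The part of these cell states in the collagen values was not tested.

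Stretches of reference sequence are given first for the places on which the results turn. The first 3 are promoter stretches, shown because type IV genes share theirs between a pair and because COL5A1 held a peak of both replicates there. Capitals mark the GC box (GGGCGG on either strand). All are written 5′ to 3′ on the plus strand of hg38, and parts annotated as untranslated were left out. They lie at chr13:110307158-110307257 between the start sites of COL4A1 and COL4A2, at chr2:227164454-227164623 between COL4A4 and COL4A3, and at chr9:134641522-134641742, the replicate 2 peak upstream of COL5A1.
COL4A1 and COL4A2: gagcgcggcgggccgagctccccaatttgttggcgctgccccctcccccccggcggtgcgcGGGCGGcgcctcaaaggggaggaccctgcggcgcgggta
COL4A3 and COL4A4: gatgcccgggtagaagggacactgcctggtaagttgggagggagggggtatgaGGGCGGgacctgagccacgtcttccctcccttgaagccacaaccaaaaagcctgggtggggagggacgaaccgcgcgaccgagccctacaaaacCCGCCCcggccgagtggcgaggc
COL5A1: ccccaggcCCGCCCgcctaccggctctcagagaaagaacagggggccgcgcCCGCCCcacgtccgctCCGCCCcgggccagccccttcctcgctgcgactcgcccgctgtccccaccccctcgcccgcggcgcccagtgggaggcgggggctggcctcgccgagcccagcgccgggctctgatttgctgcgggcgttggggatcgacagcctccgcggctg

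The next stretches run 60 bp to either side of a summit inside or beside a gene. COL1A1 intron 1 (chr17:50200254-50200374) is shown because its peak was the only one near the COL1A1 promoter, with its GC box in capitals. The stretches downstream of COL1A1 (chr17:50178532-50178652), in intron 58 of COL12A1 (chr6:75098829-75098949) and in intron 21 of COL28A1 (chr7:7438998-7439118) are shown because they hold the AP-1 motif, TGACTCA or TGAGTCA, in capitals. The strongest region in COL4A2 (chr13:110397035-110397155, intron 4) holds neither motif.
COL1A1 intron 1: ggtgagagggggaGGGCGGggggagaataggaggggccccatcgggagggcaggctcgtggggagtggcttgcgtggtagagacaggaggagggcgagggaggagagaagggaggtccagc
COL1A1 downstream: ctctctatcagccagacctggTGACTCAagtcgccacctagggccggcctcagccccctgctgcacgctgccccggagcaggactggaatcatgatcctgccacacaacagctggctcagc
COL12A1 intron 58: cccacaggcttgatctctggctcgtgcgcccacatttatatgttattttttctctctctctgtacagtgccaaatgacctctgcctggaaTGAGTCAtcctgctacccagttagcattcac
COL28A1 intron 21: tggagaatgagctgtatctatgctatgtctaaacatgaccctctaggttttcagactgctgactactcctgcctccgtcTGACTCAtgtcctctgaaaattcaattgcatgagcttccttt
COL4A2 intron 4: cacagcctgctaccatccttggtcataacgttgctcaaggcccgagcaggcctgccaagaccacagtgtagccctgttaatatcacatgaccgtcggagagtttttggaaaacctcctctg

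Collagen promoters carried a peak less often than protein-coding promoters at large. Both lists placed a peak in the 1 kb window of 13 of the 44 genes, or 29.5%, against 52.2% of all 20033 protein-coding genes. In replicate 1 alone 13 collagen promoters had a peak (53.2% of all genes), and in replicate 2 alone 17 had one (57.9% of all genes). Both lists gave the same call for 40 of 44 genes, and the 4 others had a peak in replicate 2 only. Over all 20033 genes the call was the same for 18694, while 1148 had a peak in replicate 2 only and 191 in replicate 1 only. The 13 genes were COL1A1, COL5A1, COL5A2 and COL24A1 among 11 fibrillar collagens, COL4A1, COL4A2, COL4A3, COL4A4 and COL18A1 among 8 of the basement membrane, and COL8A1, COL12A1, COL14A1 and COL19A1 among the 25 others. The shares were 36.4% for fibrillar, 62.5% for basement membrane and 16.0% for other collagens. With 1 condition there were no groups to compare, and no test of these differences was run. The type IV genes count as pairs that share a peak, so the 5 basement membrane genes stand for 3 separate promoters. The 8 genes of the class also count both genes of each pair, so the 3 should not be set against 8.

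The promoter peaks that were present were weak. Over the 13 collagens the highest peak of each promoter had a median fold enrichment of 5.38 ± 0.261 (SD, n = 2), against 8.89 ± 1.06 (SD, n = 2) over all genes with a promoter peak in both replicates. In replicate 1 the value lay below the median of all such genes for 12 of 13 collagens, and in replicate 2 for 13 of 13. COL4A1 and COL4A2 share their highest peak, as do COL4A3 and COL4A4, so each of these peaks is counted for both genes. The collagen median in each replicate was the value of the COL4A1 and COL4A2 peak. The summits of the 13 collagens held 20 to 97 fragments in replicate 1, with a median of 29, and 20 to 83 in replicate 2, with a median of 27. The summits of both replicates lay within 200 bp of the TSS for 7 of the 13 genes, which were COL4A1, COL4A2, COL4A4, COL5A1, COL5A2, COL8A1 and COL12A1. For the 6 others the highest peak of at least 1 replicate had its summit farther away. This count was not made over all genes, so it does not show whether such summits are particular to collagens.

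**Figure D1:**
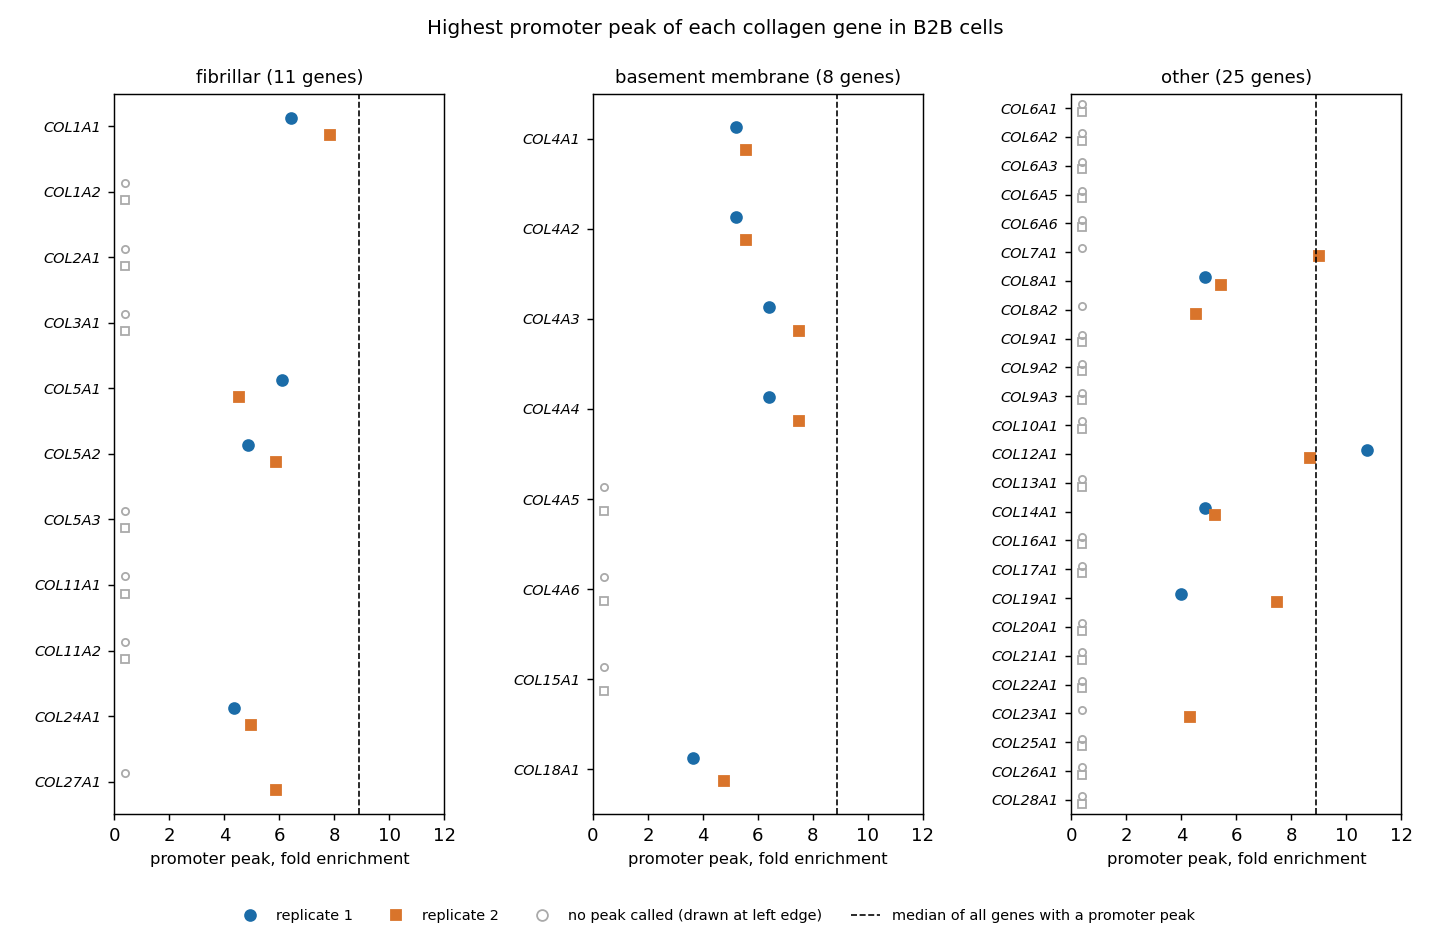
Fold enrichment (horizontal axis, linear) of the highest peak within 1 kb of the TSS for each of the 44 collagen genes in replicate 1 (circles) and replicate 2 (squares), by class. Open grey symbols at the left edge mark genes with no peak in that replicate. The dashed line is the mean over both replicates of the median of all genes with a promoter peak, 8.89. Most collagen peaks sit left of it, and only COL12A1 in replicate 1 and COL7A1 in replicate 2 lie to its right.

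Among the fibrillar collagens, COL1A1 and COL1A2 encode the chains of type I collagen, the main fibril of interstitial tissue. COL1A1 had a fold enrichment of 6.41 in replicate 1 and 7.85 in replicate 2, a mean of 7.13 ± 1.02 (SD, n = 2). The peak did not sit at the start. Its summit lay 958 bp past the TSS in replicate 1 and 1317 bp past it in replicate 2, in intron 1. Within 500 bp of the TSS neither replicate had a peak. COL1A2 had no promoter peak, and the nearest peak lay 20.4 kb from its TSS in either replicate. COL3A1, which encodes the chain of type III collagen found beside type I in elastic tissues, had the emptiest surroundings of the 3. Its nearest peak was 205 kb from the TSS in replicate 1 and 122 kb in replicate 2.

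Type V collagen, which sits within type I fibrils and limits their diameter, showed a different picture. COL5A1 had a fold enrichment of 6.08 in replicate 1 and 4.53 in replicate 2, a mean of 5.31 ± 1.09 (SD, n = 2), with 43 and 31 fragments at summits 172 and 199 bp upstream of the TSS. COL5A2 had 4.85 and 5.89, a mean of 5.37 ± 0.735 (SD, n = 2), with summits 10 bp past and 37 bp before the TSS. The third chain, COL5A3, had none, and the nearest peak lay 85.5 kb away in replicate 1 and 17.1 kb away in replicate 2. COL24A1 had 4.33 and 4.98, a mean of 4.66 ± 0.462 (SD, n = 2). The higher of its replicate 2 peaks lay 648 bp past the TSS, and the peak that matched replicate 1 had 4.30 there. COL27A1 had a promoter peak in replicate 2 only, with a fold enrichment of 5.89 and 25 fragments. The cartilage collagens COL2A1, COL11A1 and COL11A2 had none at 1 kb. COL11A1 had a peak in both replicates within 3 kb of the TSS, as did COL27A1.

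Type IV collagen genes lie head to head in pairs, and the pairs differed. The TSSs of COL4A1 and COL4A2, which encode the chains of the common basement membrane network, are 127 bp apart on chromosome 13. A peak of 5.20 fold in replicate 1 and 5.57 fold in replicate 2, a mean of 5.38 ± 0.261 (SD, n = 2), lay at these starts. The replicate 1 peak covered both TSSs, and the replicate 2 peak covered that of COL4A1 and ended 0.023 kb short of that of COL4A2. The summits lay 7 and 4 bp inside COL4A1, with 29 and 27 fragments. The TSSs of COL4A3 and COL4A4, whose products form the network of the kidney glomerulus and the lung alveolus with COL4A5, are 419 bp apart on chromosome 2. Their shared peak was 834 bp wide in replicate 1 and 789 bp wide in replicate 2. It reached 6.41 and 7.48 fold, a mean of 6.94 ± 0.754 (SD, n = 2), and 36 and 32 fragments. A weaker peak of 4.33 and 4.53 fold lay in intron 1 of COL4A4. The TSSs of COL4A5 and COL4A6 are 1416 bp apart on chromosome X, and no peak lay within 346 kb of either in either replicate.

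The promoter stretch shown between COL4A1 and COL4A2 holds 1 GC box and 1 CCAAT box, that between COL4A3 and COL4A4 holds 2 GC boxes, and that of COL5A1 holds 3. These matches describe the letters only. COL15A1 and COL18A1 encode related collagens of the basement membrane zone, and the C-terminal end of type XVIII is endostatin. COL15A1 had no promoter peak. COL18A1 had 3.64 in replicate 1 and 4.76 in replicate 2, a mean of 4.20 ± 0.792 (SD, n = 2). These were separate peaks, with a summit 424 bp past the TSS in replicate 1 and 141 bp before it in replicate 2, each with 20 fragments. The COL18A1 call was lost once peaks with a −log10 q under 5 were left out.

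Among the other collagens the strongest promoter was that of COL12A1, a FACIT collagen of type I fibrils. Its peak had a fold enrichment of 10.8 in replicate 1 and 8.68 in replicate 2, a mean of 9.72 ± 1.47 (SD, n = 2), with 97 and 83 fragments. These were the highest fragment counts of any collagen promoter. A smaller peak of 4.11 and 3.96 fold lay 757 and 671 bp past the TSS. The related FACIT gene COL14A1 had 4.85 and 5.21, a mean of 5.03 ± 0.254 (SD, n = 2), from a peak whose summit lay 768 and 704 bp before the canonical TSS. COL19A1 had 3.98 and 7.48, a mean of 5.73 ± 2.47 (SD, n = 2), at 868 and 923 bp past the TSS. Within 500 bp of the start neither gene had a peak in either replicate. The short-chain collagen gene COL8A1 had 4.85 and 5.44, a mean of 5.14 ± 0.415 (SD, n = 2). Its partner COL8A2 had 4.53 in replicate 2 alone.

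COL7A1, which encodes the anchoring fibril that ties the basement membrane to the tissue below it, had the strongest of the 4 promoter peaks found in replicate 2 only. That list had a peak of 9.02 fold and 42 fragments 391 bp before the TSS and a weaker one of 3.78 fold 25 bp before it. In replicate 1 there was none, and the nearest peak lay 14.3 kb away. The transmembrane collagen gene COL23A1 had 4.30 fold in replicate 2 only. COL17A1 encodes the transmembrane collagen of hemidesmosomes, which anchor basal epithelial cells. It had no promoter peak, and the nearest lay 35.1 kb from the TSS in both replicates. None of the 5 type VI genes and none of the 3 type IX genes had a promoter peak in either replicate. COL6A1 and COL6A2, which encode the beaded filaments of most connective tissue, had their nearest peaks 10.9 and 45.5 kb away in replicate 2 and 203 and 86.3 kb away in replicate 1.

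Promoter CpG content was set beside these calls, because CpG-rich promoters are often accessible in any cell type. Collagens with a promoter peak in both replicates had 15 to 133 CpG dinucleotides within 500 bp of the TSS, with a median of 70, and the 27 with none had 2 to 126, with a median of 46. The groups overlapped over nearly their whole range. All protein-coding genes were then divided into 4 parts by CpG count. In the lowest part, with 0 to 30 CpGs, 5.90% of all genes and 1 of 10 collagens had a promoter peak. The collagen was COL5A2, with 15 CpGs. In the second part the values were 56.0% of all genes and 5 of 16 collagens, and in the third 73.3% and 3 of 9. In the highest part, with 93 to 207 CpGs, they were 74.3% and 4 of 9. The CpG-rich promoters without a peak in both replicates were those of COL6A2, COL8A2, COL9A3, COL15A1 and COL23A1. COL8A2 and COL23A1 had one in replicate 2.

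**Figure D2:**
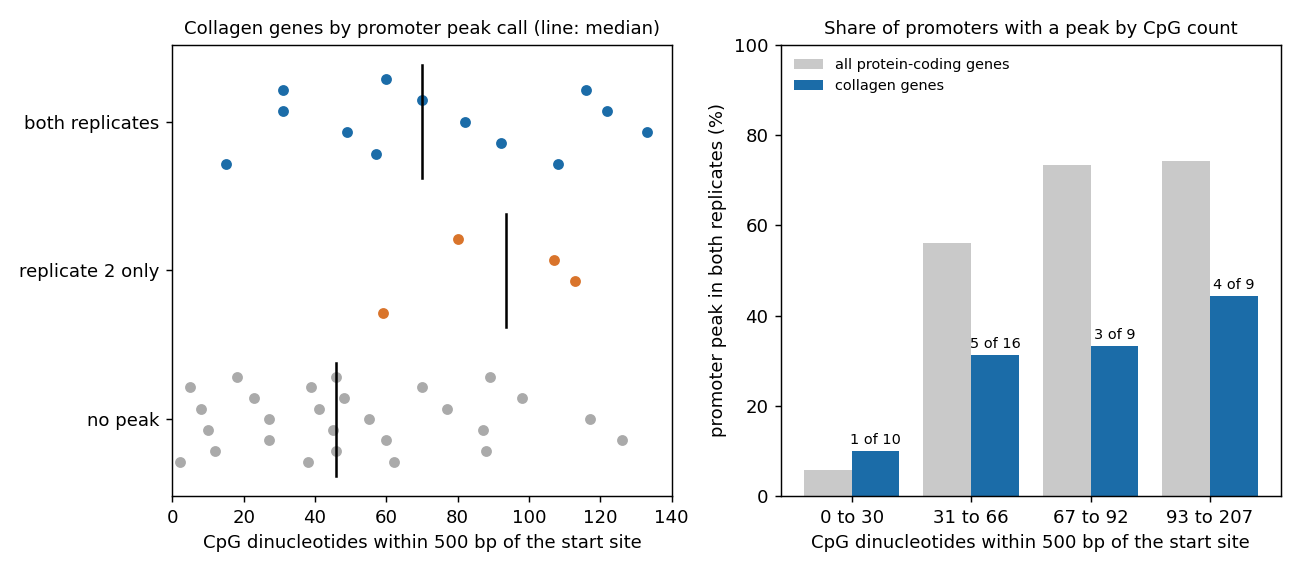
Left, number of CpG dinucleotides within 500 bp of the TSS (horizontal axis) for each collagen gene by promoter call, with a line at the median of 70 for genes with a peak in both replicates, 93.5 for replicate 2 only and 46 for none. Points are spread vertically for legibility. Right, percentage of promoters with a peak in both replicates (vertical axis, from 0) for all protein-coding genes (grey) and collagens (blue) in 4 parts by CpG count. The collagen bars are lower than the grey bars in the upper 3 parts.

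Short motifs were counted in the RefSeq promoter sequences of GRCh38.p14, from 250 bases before to 50 after the start, which were matched by symbol for 32 of the 44 genes. The GC box was found on either strand in 18 of 32 collagen promoters and in 59.2% of all 15345 protein-coding promoters with a sequence. The CCAAT box (CCAAT, either strand) was found in 10 of 32 and in 36.6% of all. Among those 10 were COL4A1, COL4A2, COL4A5 and COL4A6. The AP-1 motif was found in 0 of 32 against 3.68% of all, and the TEAD motif (GGAATG, either strand) in 1, COL12A1, against 11.7%. A TATA box (TATAAA within 40 bp before the start) was found in 1, COL6A2, against 3.80%.

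Inside the genes, regions with a peak of each replicate were found in 17 of the 44 collagens, or 38.6%, against 23.5% of all protein-coding genes. Collagen genes are long, with a median of 145 kb against 27.5 kb for all genes, and a long gene can hold more regions. Per length the order turned round. Collagens held 33 regions over 6.69 Mb, or 4.93 per Mb, and all genes held 8337 over 1305 Mb, or 6.39 per Mb. Leaving out regions within 1 kb of the canonical TSS of any protein-coding gene gave 5.70 per Mb for all genes. The collagen value stayed as it was. Here and below, regions away from promoters are those beyond 1 kb of these TSSs. Starts of other transcripts were not left out. Basement membrane collagens had 9.63 regions per Mb, fibrillar collagens 8.46 and the others 1.83. The first value rests on COL4A2, which alone held 8 of 14 regions, and was 4.81 per Mb without it. The 27 other collagens had no such region, so the median per 100 kb was 0, as it was over all genes.

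**Figure D3:**
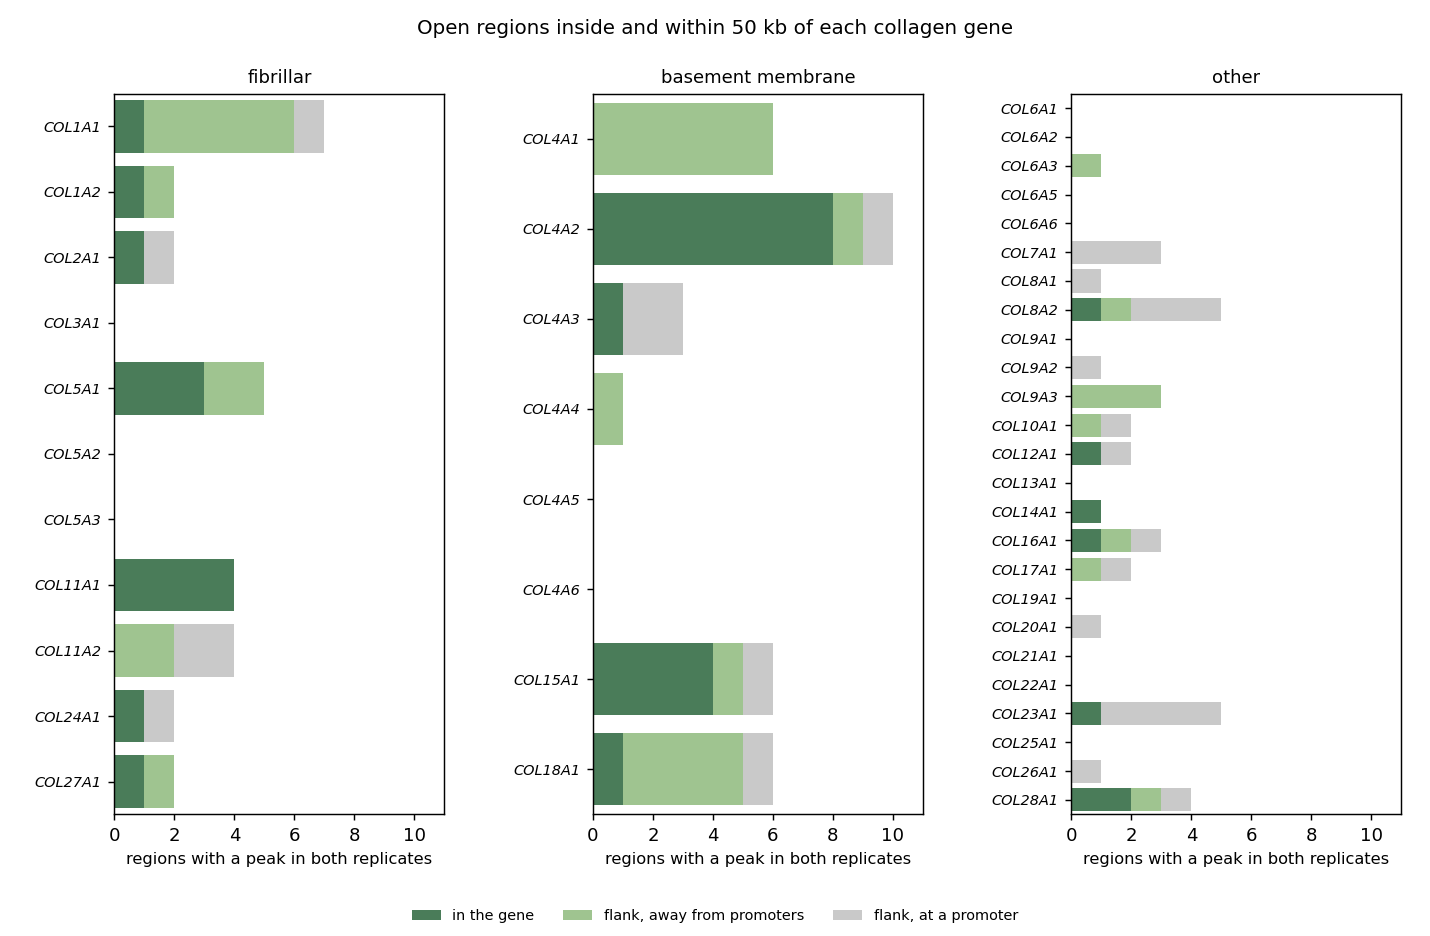
Number of shared regions, those holding a peak of each list (horizontal axis, from 0), for each collagen gene, inside the gene and beyond 1 kb of its start (dark green), within 50 kb of the gene and away from promoters (light green), and within 50 kb at the promoter of a protein-coding gene (grey). COL4A2 has 10 in all and COL1A1 has 7, and 4 regions inside COL4A2 are also counted in the flank of COL4A1.

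COL4A2 carried the most regions of any collagen, all in introns 3 and 4. The 4 in intron 3 lay 12.6 to 40.9 kb past the TSS and the 4 in intron 4 lay 80.9 to 89.8 kb past it. The strongest, in intron 4, had a fold enrichment of 10.4 in replicate 1 and 13.4 in replicate 2, a mean of 11.9 ± 2.1 (SD, n = 2), with 59 and 58 fragments. The next, at 40.9 kb, had 10.4 and 8.38, a mean of 9.39 ± 1.42 (SD, n = 2). Both exceeded the shared COL4A1 and COL4A2 promoter peak in both replicates. COL4A1 itself held 0 regions, but 2 lay within 50 kb of its 3′ end, 10.5 and 22.4 kb past it. None of the 8 regions inside COL4A2 had an AP-1 motif within 100 bp of its summit.

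The other genes with several regions were COL11A1 and COL15A1 with 4, COL5A1 with 3 and COL28A1 with 2, and 12 genes had 1. COL11A1, COL15A1 and COL28A1 had no promoter peak in either replicate, nor had COL1A2, COL2A1 and COL16A1, which had 1 region each. In COL11A1 the regions lay 1.39 kb past the TSS and 189 to 229 kb past it, near the far end of the gene. The region at 229 kb was the only one of the 33 with its summit in an exon, exon 66, while 31 lay in introns. The remaining region lay 1.38 kb before the canonical TSS of COL14A1, within the annotated gene, at 10.4 fold in replicate 1 and 8.16 fold in replicate 2, above the 4.85 and 5.21 of its promoter peak. In COL15A1 the strongest had 7.28 in replicate 1 and 11.3 in replicate 2, a mean of 9.30 ± 2.86 (SD, n = 2), 45.9 kb past the TSS in intron 5. In COL5A1 the strongest lay in intron 1, 20.6 kb past the TSS, at 7.62 and 12.3, a mean of 9.98 ± 3.33 (SD, n = 2). Relative to length the densest were COL1A1 with 5.70 regions per 100 kb, COL4A2 with 3.86, COL8A2 with 3.34, COL2A1 with 3.17 and COL15A1 with 3.13. In COL1A1, COL2A1 and COL8A2 that density rests on 1 region in a short gene. The COL1A1 region is the intron 1 peak that also gave its promoter call, counted inside the gene because the summit of the merged region lay beyond 1 kb.

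The strongest region inside any collagen gene lay in intron 21 of COL28A1, a gene of a collagen with von Willebrand factor A domains. It had a fold enrichment of 15.8 in replicate 1 and 17.0 in replicate 2, a mean of 16.4 ± 0.867 (SD, n = 2), with 90 and 74 fragments, and the AP-1 motif shown above. The region in intron 5 of COL23A1 had 10.6 and 14.5, a mean of 12.5 ± 2.78 (SD, n = 2). That in intron 58 of COL12A1 had 9.53 and 13.4, a mean of 11.4 ± 2.71 (SD, n = 2), and also held the AP-1 motif. COL1A2 had 1 region, in intron 40, at 6.24 and 7.70, a mean of 6.97 ± 1.04 (SD, n = 2), and a shorter annotated transcript begins within 1 kb of it. Counting the TSS of any transcript, COL1A2 and COL11A1 joined the genes with a promoter peak, which then numbered 15 of 44. That was 34.1%, against 56.1% of all protein-coding genes counted the same way. Of the 33 regions 27 had a higher fold enrichment in replicate 2, as had 74 of the 91 regions inside and around the genes. The shift was not particular to collagens. Over all 15067 shared regions away from promoters the median was 6.06 in replicate 1 and 7.48 in replicate 2.

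Around the genes, 27 of the 44 collagens had a region with a peak in both replicates within 50 kb, or 61.4%, against 70.3% of all protein-coding genes. These flanks held 62 regions, of which 29 lay at the promoter of a protein-coding gene and 33 lay away from any. COL4A1 had 6 away from promoters, 4 of them inside COL4A2. COL1A1 had 5, COL18A1 had 4 and COL9A3 had 3. COL5A1 and COL11A2 had 2 each. The 4 regions beside COL23A1 lay at the promoters of HNRNPAB, PHYKPL and CLK4, and the 3 beside COL7A1 at those of PFKFB4, UQCRC1 and SLC26A6. Beside COL15A1 lay the promoter of TGFBR1, a receptor gene of the TGF-beta pathway, with 13.2 ± 0.450 fold (SD, n = 2).

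COL1A1 had its flanking regions on both sides. Upstream lay 3, at 8.18, 8.85 and 17.5 kb from the TSS, and the nearest had 8.66 fold in replicate 1 and 10.4 fold in replicate 2, a mean of 9.56 ± 1.26 (SD, n = 2). Downstream the strongest lay 5.51 kb past the end of the gene. It had 8.66 and 11.9 fold, a mean of 10.3 ± 2.30 (SD, n = 2), with 49 and 69 fragments, and held the AP-1 motif. Both of these flanking regions had a higher fold enrichment than the intron 1 peak in each replicate. COL1A2 had 1 flanking region, 20.5 kb upstream of its TSS, at 4.50 and 5.44 fold. The strongest flanking region of all lay 28.9 kb upstream of COL18A1, at 19.9 and 17.7 fold, a mean of 18.8 ± 1.59 (SD, n = 2), with 114 and 77 fragments in a stretch of 148 bp. COL6A3 had 1, 18.6 kb upstream of its TSS, at 7.62 and 12 fold, and COL5A1 had 1 at 11.4 and 11.8 fold, 39.1 kb upstream.

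**Figure D4:**
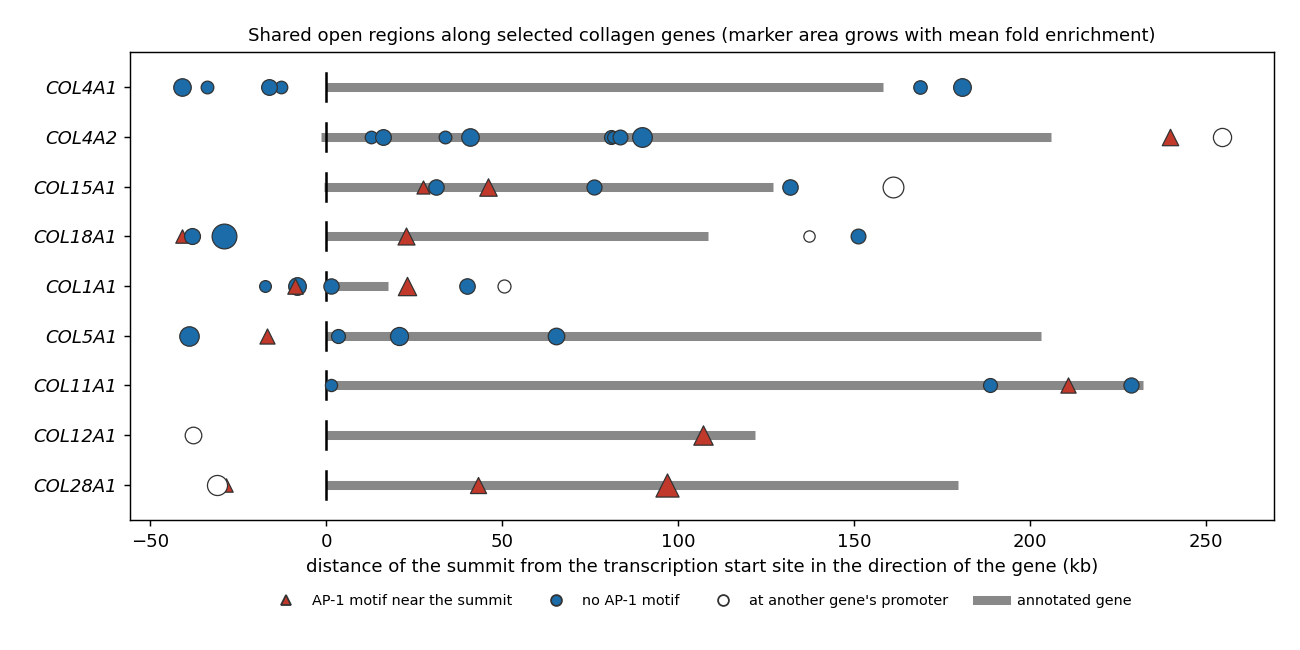
Position of each region with a peak in both replicates for 9 collagen genes, as distance of the summit from the canonical TSS in the direction of the gene (horizontal axis, kb), with the annotated gene as a grey bar. Marker area grows with the mean fold enrichment of both replicates. Triangles have an AP-1 motif within 100 bp of the summit, circles have none, and white circles lie at the promoter of another gene. The 8 regions inside COL4A2 are circles, and the regions inside COL12A1 and COL28A1 are triangles.

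The share of regions with the AP-1 motif differed from that of all regions by less than its counting interval. Away from promoters, 20 of the 62 regions inside or beside collagens had it within 100 bp of the summit, or 32.3% (95% Wilson interval 22 to 44.6), against 32.6% of all 15067 such regions. Inside the genes 10 of 33 had it, by class 3 of 12 in fibrillar, 3 of 14 in basement membrane and 4 of 7 in other collagens. These were in COL11A1, COL24A1 and COL27A1, in COL15A1 and COL18A1, and in COL12A1, COL16A1 and COL28A1. The TEAD motif was found in 22.6% of the collagen regions (14 to 34.4) against 25.5% of all, and the GC box in 27.4% (17.9 to 39.6) against 18.8%. The motif letters do not show which factor was bound.

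Of the 27 collagens with no promoter peak in either replicate, 6 had a region inside the gene, 8 had regions in the flanks only and 13 had neither in both replicates. The 13 were COL3A1, COL4A5, COL4A6, COL5A3, COL6A1, COL6A2, COL6A5, COL6A6, COL9A1, COL13A1, COL21A1, COL22A1 and COL25A1. For 7 of these no peak of either list touched the gene or its 50 kb flanks. They were COL3A1, COL4A5, COL4A6, COL6A5, COL6A6, COL13A1 and COL25A1. The longest was COL25A1, a transmembrane collagen gene of 494 kb, whose TSS lay 131 kb from the nearest peak in both replicates. The 8 with regions in the flanks only were COL6A3, COL9A2, COL9A3, COL10A1, COL11A2, COL17A1, COL20A1 and COL26A1. Of the genes with a promoter peak in both replicates, COL5A2 and COL19A1 had no further region. The matching counts over all protein-coding genes were not made. Whether loci without any region are unusually frequent among collagens is therefore not shown.

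Genes that make and handle collagen were read the same way, beside the 52.2% of all genes with a promoter peak in both replicates. Of 21 genes for the modification, folding and export of collagen chains 15 had such a peak (71.4%), 4 in replicate 2 only (P4HA3, P3H4, FKBP10 and COLGALT1) and 2 in neither (CREB3L1 and P3H3). The strongest were MIA3, which encodes the cargo receptor for collagen export, at 18.6 ± 2.2 fold, and P3H1, a prolyl 3-hydroxylase, at 15.5 ± 0.173 fold (SD, n = 2 for both). SERPINH1, the collagen chaperone, had 6.71 ± 0.0638 fold (SD, n = 2). Of 13 genes for processing and crosslinking 7 had a promoter peak in both replicates (53.8%), a share near that of all genes. LOXL1 and LOXL4 had one in replicate 1 only, and TLL1, ADAMTS2, ADAMTS14 and PCOLCE had none. TLL2 was strongest at 13.3 ± 0.587 fold, followed by LOXL2, a lysyl oxidase, at 8.68 ± 2.47 fold (SD, n = 2 for both). Of 10 collagen receptor genes 4 had one in both replicates (40%), a share below that of all genes, with ITGA1 at 11 ± 0.208 fold and ITGB1 at 10.7 ± 1.28 fold (SD, n = 2 for both) as the strongest, and ITGA2 and MRC2 as the others. DDR1 and ITGA11 had one in replicate 2 only, and ITGA10, DDR2, GP6 and LAIR1 had none. The shares of these lists were not matched for promoter CpG content. ITGA10, DDR2, GP6 and LAIR1 had 4, 14, 24 and 21 CpGs, within the lowest part, where 5.90% of all genes had a promoter peak. The 21 genes for modification, folding and export had 39 (FKBP14) to 127 (TMEM131), so none lay in that part. In the higher parts 56.0%, 73.3% and 74.3% of all genes had a promoter peak in both replicates, which is the nearer measure for their 71.4%.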

How the data were processed

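ATAC-seq peak lists of 2 replicates of B2B cells were used. Per the methods of the study, the authors mapped reads to hg38 with Bowtie2 2.4.4, removed duplicates with code of their own and called peaks with MACS2 2.2.7.1. There is 1 deposited list per replicate. The deposited fold enrichment is a linear ratio, with 1 added to the summit fragments and to the local background. For significance the deposited lists hold −log10 values of p and q. A score in the deposited lists is not used here. The q limit, the shift of Tn5 cuts and the handling of mitochondrial reads are not given in the sources used here.

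Chromosomes 1 to 22, X and Y were kept, and their peaks were set against GENCODE 44 in Python 3.11.15 (pandas 2.3.3, scipy 1.17.1, pysam 0.24.0). An overlap of 1 bp counted. Overlapping peaks were merged, and a region was shared if it held a peak of each replicate. Fragments at the summit were solved within 0.01 of the −log10 p, for 99.7% and 99.8% of peaks. The steps were tested on simulated data. The genes and lists were chosen with earlier results of these data known. Named were all members with a promoter peak, those with the most regions inside, per 100 kb or beside the gene, and head-to-head pairs within 2 kb. Alternatives were other windows, flanks, overlaps, peak limits and motif settings and each replicate alone. The 95% Wilson intervals reflect counting error only.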

Additional observations from a re-analysis of the deposited data

How the results depend on the processing

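Across 13 results 89 values were computed under alternatives, of which 79 were the same within 1.5 times the main count, the replicate SD or the counting interval, and 10 moved. No paired analysis was possible because there is 1 group, with nothing to pair it with. Causes were not tested, apart from what a wider or narrower window or a single list gives by construction. With each replicate left out, the count of other collagens with a promoter peak was 4 to 7, that of regions inside collagen genes 41 to 59 in place of 33, the median per 100 kb 0 to 0.443, and that of collagens with no peak anywhere 8 to 12 in place of 7. Without replicate 2 it was 12, and without replicate 1 the regions inside the genes were 59 and the other collagens 7. A rise is built into these settings. With 1 list a peak needs no match in the other, and a gene has fewer lists in which to show a peak. Within 500 bp of the TSS 2 other collagens had a promoter peak, and 10 collagens in all (22.7%), against 50.9% of all genes. With flanks of 20 kb, 15 collagens had 26 flanking regions, and with flanks of 100 kb there were 128 regions and 3 collagens without any peak. For these 2 flank widths the counts over all genes were not made. The regions per Mb of basement membrane collagens, 9.63, were 4.81 without COL4A2, a setting chosen after seeing the data. The number of collagen promoters with a peak, 13, ranged from 10 to 17 over the alternatives, while the share of all genes ranged from 49.9% to 57.9%. Depth bounds what a missing peak can show, as the weakest summits listed had 16 fragments (replicate 1) and 13 (replicate 2).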
